A study of Mus musculus with 8 samples.

Results

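Collagen chain genes were examined in libraries labelled as activated muscle stem cells (ASCs), the Pax7-lineage cells that leave quiescence after muscle injury. The libraries were wild-type or mfn2-/-, with mitofusin 2 (Mfn2), an outer-membrane protein of mitochondrial fusion, as the targeted gene. The members were every row of the deposited table whose symbol reads Col, a number, a and a number, and 42 of the 18877 symbols met this rule. The rule used symbols only, but this family was chosen with earlier results of these data known. They were grouped by textbook class into 11 fibrillar, 6 basement membrane, 9 FACIT (fibril-associated), 5 beaded and 11 other chains. Col21a1, Col6a4 and Col26a1 had no row under those symbols. The table carried Col26a1 under its older symbol Emid2, which lay outside the rule.

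Total RNA was sequenced from 4 wild-type and 4 mfn2-/- libraries. All animals carried a mito-Dendra2 reporter allele switched on by Pax7-CreERT2, received tamoxifen at 75 mg/kg in 5 daily doses and had the tibialis anterior injured with BaCl2, and the mfn2-/- animals also carried the targeted Mfn2 allele. Cells were sorted on day 2 after injury as CD34-, Dendra2+ and DAPI- events. Cre acts only where Pax7 is or was active, so deletion and reporter depend on the same driver. Age and sex were not stated in the labels, and the labels do not say whether the libraries came from separate animals, so the p-values measure the spread between these libraries.

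Collagens are trimeric extracellular proteins whose chains share long Gly-X-Y repeats. Fibrillar chains build the cables of tendon, bone and the muscle interstitium, FACIT chains sit on the fibril surface, type IV chains form the sheet of basement membranes and type VI chains form beaded microfilaments between that sheet and the fibrils. In muscle, interstitial fibroblasts, fibroadipogenic progenitors and tenocytes are known as the main sources of fibrillar collagen, whereas muscle stem cells lie under a basement membrane and are themselves known to make type V and type VI chains.

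Depth ranged from 1880464 to 7508215 reads per library. Between 12613 and 15270 genes were detected in the wild-type libraries and between 9646 and 14674 in the mfn2-/- libraries, with mfn2-/- replicate 4 the lowest. No read of 4 Y-linked genes was found in wild-type replicates 1 and 2 or mfn2-/- replicates 3 and 4, and the other 4 libraries had 807 to 2336, so each genotype held both kinds of library. Pairs of libraries of the same genotype and kind differed less in their reads (chi-square per degree of freedom 11.7 to 38.9) than pairs of different kinds (32.5 to 80.3), with some overlap, and no pair agreed within sampling noise. Mfn2 itself measured 243, 245, 202 and 228 normalized reads in wild-type and 104, 118, 172 and 109.95 in mfn2-/- libraries. The mfn2-/- mean was 54.9% of the wild-type mean. Every mfn2-/- library lay below every wild-type library (log2 change -0.88, SE 0.30, two-sided exact permutation p = 0.0286, the smallest that 4 against 4 libraries can give), but the limma adjusted p of 0.0848 did not pass the threshold of 0.05.

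Values are normalized read counts, and changes are differences of log2(value + 1) between mfn2-/- and wild-type, a scale that understates the change of genes weak in both genotypes. Where 1 or more mfn2-/- libraries were at 0 and the wild-type libraries were not, the change on this scale could instead be larger than by a count model, as for Col16a1 (-5.50, against -4.03 by edgeR) and Col14a1 (-6.43, against -4.48 by DESeq2). Of the 42 chains, 41 reached the mean of 10 normalized reads needed for the test, and Col25a1 did not. By limma, 35 of the 41 were lower in mfn2-/- libraries at an adjusted p under 0.05 and 0 were higher (10 fibrillar, 5 basement membrane, 8 FACIT, 4 beaded and 8 other chains). None was higher at an unadjusted p under 0.05 either, edgeR and DESeq2 called 34 and 36 lower and 0 higher, and with library weights limma called 1 higher, Col19a1. Among all 11754 genes tested, 6.36% were called lower and 3.99% were called higher. The median change of the 41 chains was -4.44, against -0.16 for all genes tested. Of the 41, 15 had an mfn2-/- mean under 10 and so passed the filter through the wild-type libraries, and among the other 26 chains 23 were called lower with a median of -3.76. For 35 chains the values of the 2 genotypes did not overlap, with mfn2-/- lower, and 12.2% of all genes tested had such a pattern. Measured from the median of all genes, the called chains changed by between -1.13 (Col4a1) and -8.24 (Col11a1, with 1 mfn2-/- library at 0), and no chain that was called changed sign under any scaling.

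**Figure D1:**
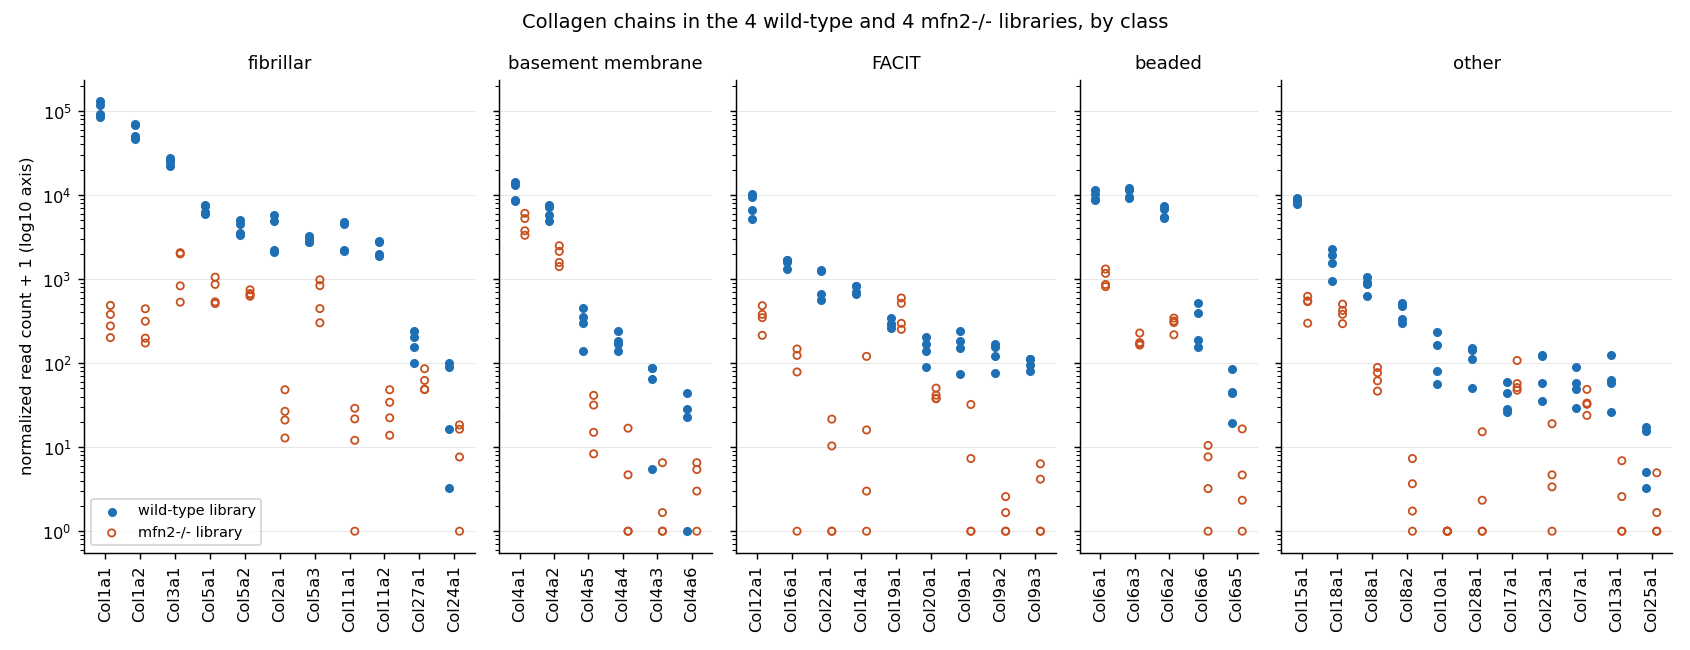
Normalized read count plus 1 (log10 axis) of each of the 42 collagen chains in every library, by class and in order of abundance, with filled points for the 4 wild-type and open points for the 4 mfn2-/- libraries. The groups are apart for most chains, Col1a1 lies at 83667 to 130172 in wild-type and at 200 to 484 in mfn2-/- libraries, and Col19a1 and Col17a1 overlap.

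Collagen chains together made up 5.68%, 5.49%, 8.25% and 8.01% of the normalized total in the wild-type libraries and 0.445%, 0.416%, 0.304% and 0.249% in the mfn2-/- libraries, a 19.4-fold lower mean share. The log2 change of the share was -4.28, and -2.88 when the most abundant chains Col1a1, Col1a2 and Col3a1 were left out.

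The fibrillar class held the most abundant chains and 10 of its 11 members fell. Col1a1 and Col1a2 encode the chains of type I collagen, the main fibrillar protein of tendon and fascia. Col1a1 measured 91854, 83667, 130172 and 118455 normalized reads in wild-type and 378, 484, 276 and 200 in mfn2-/- libraries. The lowest wild-type library was above the highest mfn2-/- library by a wide margin, and the mean was 317-fold lower (log2 change -8.36, SE 0.27, limma adjusted p 3.64e-10). Col1a2 measured 50709, 46639, 68785 and 69445 normalized reads in wild-type and 441, 314, 197 and 172 in mfn2-/- libraries (log2 change -7.79, SE 0.28, limma adjusted p 1.11e-09). Wild-type replicates 3 and 4 were the higher pair for both chains, and among the mfn2-/- libraries replicate 2 was highest for Col1a1 and replicate 1 for Col1a2.

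Col3a1 forms type III collagen, which co-assembles with type I in distensible tissue and early repair. It measured 22369, 24808, 25868 and 27535 normalized reads in wild-type and 1989, 2054, 828 and 530 in mfn2-/- libraries. Its fall was smaller than that of the type I chains (log2 change -4.44, SE 0.37, limma adjusted p 4.96e-06), and the mfn2-/- libraries split into a higher pair with Y-linked reads and a lower pair without. The change was -3.72 among libraries with Y-linked reads and -5.15 among those without, a difference of 1.43 (SE 0.26, limma interaction term, adjusted p 0.025). Col3a1 was the only one of the 41 chains whose change differed between the kinds of library at an adjusted p under 0.05 by limma, edgeR found 2, and 173 of all genes did so by limma. In each genotype the kinds coincided with pairs of consecutive replicate numbers, so they cannot be told apart from a shared preparation. The interaction p measures only the spread within these pairs.

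The windows upstream of Col1a2 and Col3a1 are shown because these abundant fibrillar chains fell by different amounts. Each line gives the 150 bases before the annotated start in the RefSeq promoter set of GRCm38.p6, 5′ to 3′ on the gene strand, with matches to 3 motifs in capitals. These were the CCAAT motif, the TATAAA motif and the ACGTG motif, searched on both strands, so that a match on the other strand appears as the reverse complement. The Col1a2 window is chr6:4505468-4505617 on the plus strand and the Col3a1 window is chr1:45311388-45311537 on the plus strand.
Col1a2: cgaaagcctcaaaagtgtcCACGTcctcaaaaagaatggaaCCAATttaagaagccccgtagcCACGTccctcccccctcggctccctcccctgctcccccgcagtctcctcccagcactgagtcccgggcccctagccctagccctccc
Col3a1: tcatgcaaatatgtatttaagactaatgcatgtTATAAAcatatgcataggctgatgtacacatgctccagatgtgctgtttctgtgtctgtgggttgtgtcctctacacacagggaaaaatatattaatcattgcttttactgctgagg
The Col1a2 window held CCAAT starting at base -109 and CACGT at -131 and -87, and the Col3a1 window held TATAAA at -117. In the full windows, from 250 bases before to 50 after the start, CCAAT on either strand was found in 37.4% of all 32851 promoters and in 32.4% of the 37 entries of the 34 collagen genes that matched by symbol. The same shares were 13.6% and 13.5% for TATAAA and 19.6% and 13.5% for ACGTG, whose reverse complement overlaps it within CACGTG. These matches describe letters in a window, and the shares among collagen genes lay close to or below those of all promoters.

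Type V chains regulate fibril diameter, and they fell least among the abundant fibrillar chains. Col5a1 measured 6011, 6208, 7348 and 7498 normalized reads in wild-type and 1050, 861, 534 and 509 in mfn2-/- libraries (log2 change -3.26, SE 0.24, limma adjusted p 1.5e-06). Col5a2 measured 3336, 3484, 4527 and 5088 in wild-type and 669, 743, 654 and 623 in mfn2-/- libraries (log2 change -2.59, SE 0.19, limma adjusted p 1.33e-06). The mfn2-/- libraries were almost level for Col5a2, whereas for Col5a1 those with Y-linked reads were higher. Col5a3, another chain of the same type, ranged from 2735 to 3252 in wild-type and from 301 to 977 in mfn2-/- libraries (log2 change -2.36).

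The fibrillar genes Col2a1, Col11a1 and Col11a2 were each called lower. Col2a1, the main fibrillar chain of cartilage, measured 2201, 2122, 5771 and 4956 normalized reads in wild-type and 20.003, 11.9, 47.2 and 25.7 in mfn2-/- libraries (log2 change -7.13, SE 0.43, limma adjusted p 2.16e-07). The wild-type libraries with Y-linked reads were the higher pair, and the groups were still far apart in both kinds (-8.35 with and -5.92 without Y-linked reads). Col11a1 and Col11a2, which nucleate cartilage fibrils, ranged from 2140 to 4706 and from 1878 to 2792 in wild-type and from 0 to 28.0 and from 12.8 to 47.2 in mfn2-/- libraries (log2 changes -8.40 and -6.44). The Col11a1 value rested in part on mfn2-/- replicate 4, which was at 0. Without this library the change was -7.32, and by edgeR it was -7.59, against -8.14 and -8.22 for Col1a1, and the mean of Col11a1 was 226-fold lower.

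The smaller fibrillar chains were less certain. Col27a1, a fibrillar chain of cartilage and other connective tissue, measured 100.1, 153, 239 and 204 normalized reads in wild-type and 84.7, 47.4, 61.2 and 47.6 in mfn2-/- libraries, with no overlap (log2 change -1.48, SE 0.44, limma adjusted p 0.0482). Its call was lost in 6 of the 8 fits that left out 1 library, with adjusted p up to 0.176. Col24a1 measured 2.27, 15.6, 98.0 and 88.1 in wild-type and 15.3, 17.4, 6.63 and 0 in mfn2-/- libraries, the groups overlapped, and its limma adjusted p was 0.429.

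**Figure D2:**
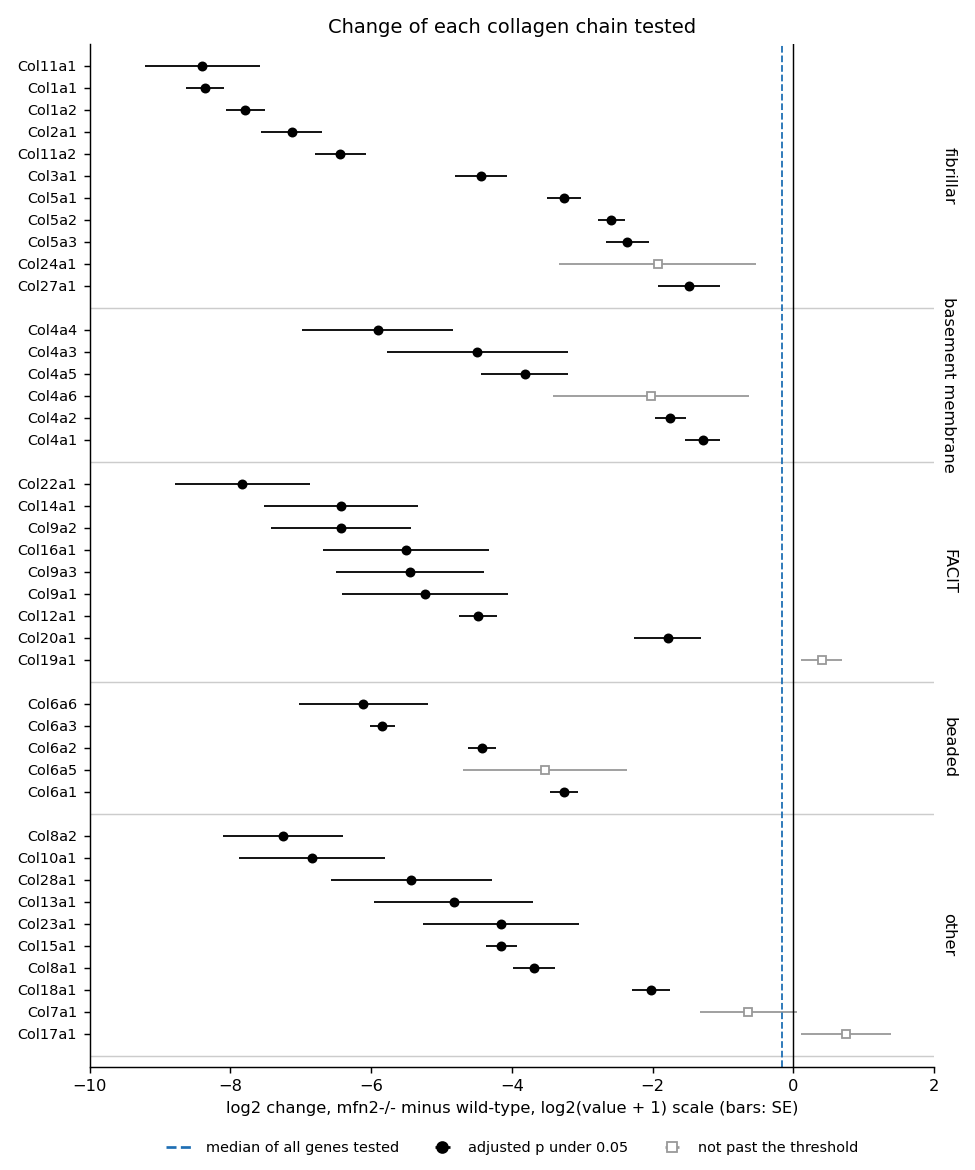
Log2 change (mfn2-/- minus wild-type, log2(value + 1) scale) of the 41 chains tested, by class, with SE bars, filled points for an adjusted p under 0.05, open squares for the others and a dashed line at the median of all genes tested, -0.16. The changes run from -8.40 for Col11a1 (-7.32 without mfn2-/- replicate 4, which was at 0) to 0.74 for Col17a1, and the abundant chains Col4a1 and Col4a2 sit at -1.29 and -1.75.

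Among the 6 basement membrane chains 5 fell, and Col4a1 and Col4a2 had the smallest changes of the 17 chains with a mean of at least 1000. Col4a1 and Col4a2 assemble into the type IV network found in nearly all basement membranes, including that around muscle fibres. Col4a1 measured 8790, 8546, 14271 and 13120 normalized reads in wild-type and 6041, 5240, 3746 and 3311 in mfn2-/- libraries. The groups did not overlap, the mean was 2.44-fold lower, and the change was -1.29 (SE 0.25, limma adjusted p 0.00568). Without the intensity trend of the variance the adjusted p was 0.0671, and with libraries of the same genotype and kind averaged it was 0.136. Col4a2 measured 5708, 4913, 7522 and 7188 in wild-type and 2487, 2128, 1573 and 1406 in mfn2-/- libraries (log2 change -1.75, SE 0.22, limma adjusted p 0.000281). Within each genotype the libraries stood in the same order for both chains.

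Col4a1 and Col4a2 lie head to head on opposite strands, with 20 bases between the annotated starts, and their exons overlap in the GENCODE M21 annotation. Since the strand setting of the counting was not given in the sources used here, reads from the shared stretch could have been assigned to either gene or to neither. The windows are shown because the genes lie head to head and had the smallest falls among the 17 chains with a mean of at least 1000. The printed windows lie on either side of the annotated starts and do not overlap. The Col4a1 window is chr8:11312827-11312976 on the minus strand and the Col4a2 window is chr8:11312655-11312804 on the plus strand, both from the same RefSeq set of GRCm38.p6 and with the same meaning of capitals.
Col4a1: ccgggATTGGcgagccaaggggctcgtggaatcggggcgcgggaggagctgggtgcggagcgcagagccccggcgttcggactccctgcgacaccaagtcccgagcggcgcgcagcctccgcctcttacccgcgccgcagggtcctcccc
Col4a2: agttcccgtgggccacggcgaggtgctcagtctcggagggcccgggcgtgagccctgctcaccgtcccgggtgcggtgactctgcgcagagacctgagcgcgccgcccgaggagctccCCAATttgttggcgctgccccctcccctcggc
The first held ATTGG at -145 and the second CCAAT at -32. The full windows of the 2 genes share 78 bases.

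The other type IV chains, which are known from specialised basement membranes such as those of kidney, testis and lung, were weaker. Col4a5 measured 136, 454, 297 and 350 normalized reads in wild-type and 30.7, 40.3, 14.0 and 7.33 in mfn2-/- libraries, with no overlap (log2 change -3.82, SE 0.62, limma adjusted p 0.00169). Col4a3 measured 4.55, 64.3, 87.4 and 86.0 in wild-type and 0.667, 5.53, 0 and 0 in mfn2-/- libraries (log2 change -4.49, limma adjusted p 0.0405). Wild-type replicate 1, the shallowest library, overlapped the mfn2-/- values of Col4a3, and the call was lost in 6 of 8 fits that left out 1 library. Col4a4 ranged from 137 to 238 in wild-type and from 0 to 15.8 in mfn2-/- libraries. Col4a6 was at 0, 21.8, 43.3 and 27.2 in wild-type and at 2.00, 5.53, 4.42 and 0 in mfn2-/- libraries, overlapped and was not called (limma adjusted p 0.405).

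FACIT chains, which link fibrils to one another and to other matrix, fell in 8 of 9 cases, with a class median of -5.45. That median is the change of Col9a3, which had 12 reads over the 4 mfn2-/- libraries and ran from -7.24 to -3.18 over the other settings tried. Col12a1, the FACIT of tendon and fascia, measured 5201, 6565, 9494 and 10231 normalized reads in wild-type and 346, 378, 480 and 213 in mfn2-/- libraries (log2 change -4.48, SE 0.27, limma adjusted p 2.41e-07). Col22a1, known from the myotendinous junction, measured 557, 671, 1295 and 1242 in wild-type and 9.33, 20.5, 0 and 0 in mfn2-/- libraries (log2 change -7.83, SE 0.96, limma adjusted p 0.000197). Its only mfn2-/- reads, 40 in all, came from the libraries with Y-linked reads. Col14a1 measured 657, 693, 829 and 831 in wild-type and 2.00, 15.01, 0 and 119 in mfn2-/- libraries, so that mfn2-/- replicate 4 stood apart from the other three, though still below every wild-type library (log2 change -6.43, SE 1.10, limma adjusted p 0.00241).

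Col16a1, a FACIT of interstitial matrix, measured 1692, 1311, 1598 and 1683 normalized reads in wild-type and 146, 122, 77.4 and 0 in mfn2-/- libraries (log2 change -5.50, SE 1.18, limma adjusted p 0.0102). The absence of reads in mfn2-/- replicate 4 set much of that value, and without this library the change was -3.80. The call was lost with a pseudocount of 0.1 (limma adjusted p 0.056) and without the intensity trend (limma adjusted p 0.0847). Col20a1 measured 168, 88.1, 205 and 138 in wild-type and 49.3, 37.1, 40.5 and 36.7 in mfn2-/- libraries (log2 change -1.79, SE 0.48, limma adjusted p 0.0313). Its groups did not overlap, but the call was lost in 5 of 8 fits that left out 1 library.

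Type IX collagen coats cartilage fibrils and is made of the products of Col9a1, Col9a2 and Col9a3, which all fell. Col9a1 measured 182, 72.6, 149 and 238 normalized reads in wild-type and 0, 6.32, 0 and 31.2 in mfn2-/- libraries (log2 change -5.24, SE 1.18, limma adjusted p 0.0131, and 0.0561 without wild-type replicate 4). Col9a2 had 3 reads in the 4 mfn2-/- libraries together, and its share of reads was 221-fold higher in wild-type (95% exact interval 75.4 to 1076, counting error only). Col9a3 ranged from 78.4 to 111 in wild-type and from 0 to 5.33 in mfn2-/- libraries.

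Col19a1, a FACIT first described in a rhabdomyosarcoma line, was the FACIT that did not fall. It measured 289, 290, 343 and 257 normalized reads in wild-type and 513, 593, 295 and 251 in mfn2-/- libraries. The 2 mfn2-/- libraries with Y-linked reads were above all wild-type libraries and the other 2 were inside their range, so the groups overlapped (log2 change 0.40, SE 0.29, limma adjusted p 0.435). The change was 0.89 in libraries with and -0.09 in libraries without Y-linked reads. Its window, chr1:24587438-24587587 on the minus strand, is shown as that of the most abundant chain that did not fall.
Col19a1: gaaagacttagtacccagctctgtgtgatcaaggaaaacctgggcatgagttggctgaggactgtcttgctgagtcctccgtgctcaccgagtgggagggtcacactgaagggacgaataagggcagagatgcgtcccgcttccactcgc
None of the 3 motifs was found in it.

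The beaded class consists of type VI chains, in which Col6a1, Col6a2 and Col6a3 are known to join as a heterotrimer. Of the 5 type VI chains 4 were called lower. Col6a1 measured 8660, 8825, 11533 and 10315 normalized reads in wild-type and 1314, 1168, 811 and 859 in mfn2-/- libraries (log2 change -3.26, SE 0.20, limma adjusted p 2.67e-07). Col6a2 measured 5510, 5293, 7401 and 6885 in wild-type and 342, 315, 216 and 302 in mfn2-/- libraries (log2 change -4.42, SE 0.20, limma adjusted p 1.24e-08). Col6a3 measured 9547, 9243, 11985 and 11442 in wild-type and 227, 163, 169 and 174 in mfn2-/- libraries (log2 change -5.84, SE 0.18, limma adjusted p 3.64e-10). Col6a1 and Col6a3 were thus at like counts in wild-type libraries and well apart in every mfn2-/- library.

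The windows of Col6a1, chr10:76726045-76726194 on the minus strand, and Col6a3, chr1:90843972-90844121 on the minus strand, are shown because the chains of this trimer fell by different amounts.
Col6a1: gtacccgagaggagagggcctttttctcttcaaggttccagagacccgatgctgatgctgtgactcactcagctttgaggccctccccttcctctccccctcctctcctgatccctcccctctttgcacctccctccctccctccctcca
Col6a3: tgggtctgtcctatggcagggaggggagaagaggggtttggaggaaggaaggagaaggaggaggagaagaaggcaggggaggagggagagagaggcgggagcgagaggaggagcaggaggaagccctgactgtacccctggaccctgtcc
Neither window held any of the 3 motifs.

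The further type VI chains were weak. Col6a6 measured 155, 186, 388 and 515 normalized reads in wild-type and 6.67, 9.48, 2.21 and 0 in mfn2-/- libraries, with no overlap (log2 change -6.11, SE 0.92, limma adjusted p 0.000993). Col6a5 measured 18.2, 42.5, 44.1 and 83.9 in wild-type and 1.33, 0, 15.5 and 3.67 in mfn2-/- libraries. The groups of Col6a5 did not overlap, but its change of -3.53 (SE 1.16, limma adjusted p 0.0732) did not pass, and it passed with a pseudocount of 10, with library weights and with DESeq2.

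The 11 remaining chains are of several kinds, and 8 of the 10 tested fell. The multiplexins Col15a1 and Col18a1 sit in or beside basement membranes and carry heparan or chondroitin sulfate chains. Col15a1 measured 9008, 7747, 9101 and 8526 normalized reads in wild-type and 547, 537, 297 and 621 in mfn2-/- libraries (log2 change -4.15, SE 0.22, limma adjusted p 8.01e-08). Col18a1 measured 946, 1547, 2300 and 1930 in wild-type and 501, 423, 293 and 379 in mfn2-/- libraries (log2 change -2.02, SE 0.27, limma adjusted p 0.000452). Both were separated in every library, and Col15a1 was the more even of the pair in wild-type.

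The network-forming short chains Col8a1, Col8a2 and Col10a1 all fell. Col8a1 measured 625, 880, 912 and 1068 normalized reads in wild-type and 45.3, 75.8, 87.7 and 60.5 in mfn2-/- libraries (log2 change -3.69, SE 0.30, limma adjusted p 4.02e-06). Col8a2 measured 337, 299.7, 520 and 477 in wild-type and 2.67, 6.32, 0.737 and 0 in mfn2-/- libraries (log2 change -7.25, SE 0.85, limma adjusted p 0.000134). Col10a1, the chain of hypertrophic cartilage, had 103, 157, 67 and 150 reads in the wild-type and 0 in every mfn2-/- library, at least 44.0-fold lower against a floor of 3 reads per library.

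Of the transmembrane chains, Col13a1, a component of the neuromuscular junction, measured 56.9, 24.9, 124 and 61.4 normalized reads in wild-type and 0, 1.58, 5.90 and 0 in mfn2-/- libraries (log2 change -4.83, SE 1.13, limma adjusted p 0.0156). Col23a1 measured 34.1, 57.0, 121 and 123 in wild-type and 18.0, 2.37, 3.68 and 0 in mfn2-/- libraries (log2 change -4.16, SE 1.11, limma adjusted p 0.0315). Neither overlapped, but the call of Col13a1 was lost without wild-type replicate 3 (adjusted p 0.0675) or replicate 4 (0.0531) and that of Col23a1 in 5 of 8 such fits. Col28a1, a chain known from peripheral nerve, ranged from 49.0 to 150.1 in wild-type and from 0 to 14.2 in mfn2-/- libraries (log2 change -5.43).

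Col17a1, the hemidesmosomal chain of epithelia, and Col7a1, the anchoring fibril chain, did not pass. Col17a1 measured 27.3, 42.5, 25.3 and 58.8 normalized reads in wild-type and 56.0, 46.6, 50.1 and 106 in mfn2-/- libraries, overlapping in the middle of the range (log2 change 0.74, SE 0.64, limma adjusted p 0.516). Col7a1 measured 56.9, 28.0, 88.2 and 48.1 in wild-type and 31.3, 32.4, 22.8 and 47.6 in mfn2-/- libraries (log2 change -0.64, SE 0.69, limma adjusted p 0.609). Col25a1, a transmembrane chain of neurons and developing muscle, was too weak to test, at 2.27 to 16.6 in wild-type and 0 to 3.95 in mfn2-/- libraries.

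The make-up of the collagen reads differed between genotypes beside their amount. Fibrillar chains took 75.7%, 74.8%, 75.7% and 75.8% of collagen reads in wild-type and 30.8%, 32.2%, 27.5% and 23.4% in mfn2-/- libraries. Basement membrane chains took 6.10%, 6.08%, 6.72% and 6.52% in wild-type and 46.5%, 44.2%, 47.1% and 45.6% in mfn2-/- libraries. Neither class overlapped between genotypes, and the beaded share was 9.61% ± 0.466 in wild-type and 10.9% ± 1.38 in mfn2-/- (SD, n = 4). Among single chains, Col1a1 took 37.4% ± 1.27 and 2.32% ± 0.427 and Col4a1 took 3.91% ± 0.315 and 32.3% ± 0.872. Col3a1 held 9.05% ± 1.24 and 8.86% ± 3.24, and Col19a1 held 0.107% ± 0.0201 and 2.84% ± 0.483. These shares are sums over chosen genes and were given no test, and the basement membrane share was higher in mfn2-/- libraries although the reads of Col4a1 and Col4a2 were lower.

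**Figure D3:**
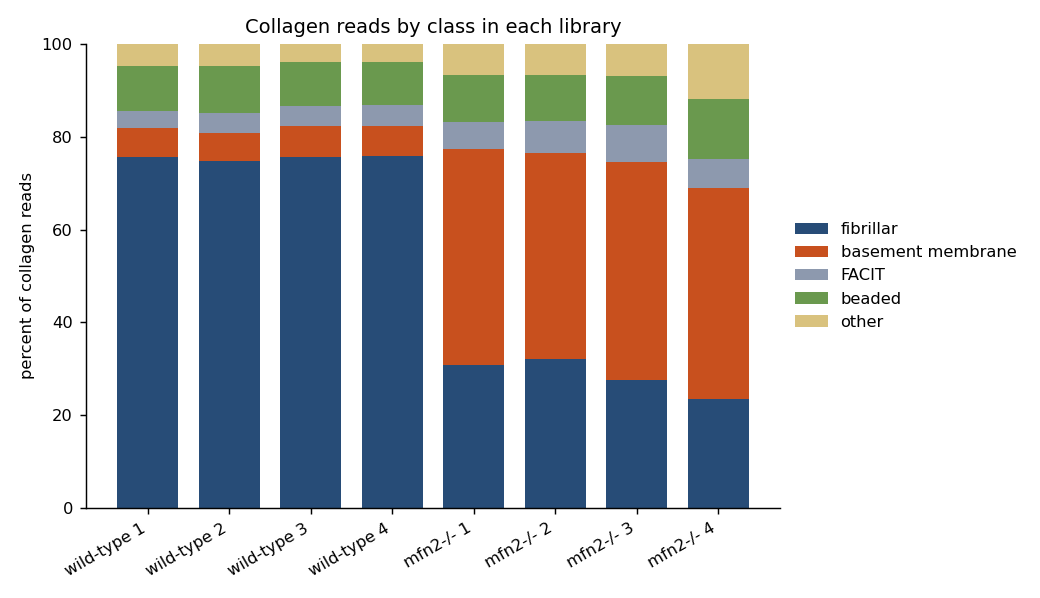
Percent of all collagen reads taken by each class in each of the 8 libraries, stacked to 100. Fibrillar chains fill 74.8% to 75.8% of the wild-type bars and 23.4% to 32.2% of the mfn2-/- bars, and basement membrane chains fill 6.08% to 6.72% and 44.2% to 47.1%.

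Levels of different chains were compared per length, as normalized reads per kilobase of coding sequence. On this scale the wild-type order was Col1a1 (24326 ± 5023), Col1a2 (14309 ± 2896), Col3a1 (5725 ± 493), Col6a1 (3198 ± 441) and Col4a1 (2233 ± 588). In mfn2-/- libraries it was Col4a1 (916 ± 255), Col4a2 (371 ± 97.5), Col6a1 (337 ± 78.8) and Col3a1 (307 ± 179), followed by Col5a2 and Col5a1 (134 ± 47.6). Col1a1 stood eleventh there, at 76.7 ± 28.4. Of neighbours in the mfn2-/- order, Col4a2, Col6a1 and Col3a1 did not differ beyond their spread.

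Ratios between chains of 1 library do not depend on how much collagen the library held. Per coding length Col1a1 over Col1a2 was 1.71, 1.69, 1.79 and 1.61 in wild-type and 0.809, 1.46, 1.32 and 1.09 in mfn2-/- libraries. The level of this ratio depends on the length used, and per exonic length it was 3.41 ± 0.145 and 2.35 ± 0.57 (SD, n = 4). Col3a1 over Col1a1 was 0.242, 0.294, 0.197 and 0.231 in wild-type and 5.22, 4.21, 2.98 and 2.63 in mfn2-/- libraries. Neither ratio overlapped between genotypes. Col6a3 over Col6a1 was 0.335 ± 0.0113 in wild-type and 0.0565 ± 0.00996 in mfn2-/-, and Col6a1 over Col6a2 was 1.59 ± 0.0706 and 3.57 ± 0.469, again without overlap.

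Col4a1 over Col4a2 was steadier, at 1.57, 1.78, 1.94 and 1.87 in wild-type and 2.48, 2.52, 2.44 and 2.41 in mfn2-/- libraries. Col5a1 over Col5a2 was the one ratio of the 6 that overlapped, at 1.36 ± 0.125 and 0.888 ± 0.291. Ratios were given no test. Exonic length in place of coding length moved their absolute values, Col1a1 over Col1a2 to 3.41 in wild-type and 2.35 in mfn2-/-, and left the log2 change between genotypes the same to within 0.01.

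**Figure D4:**
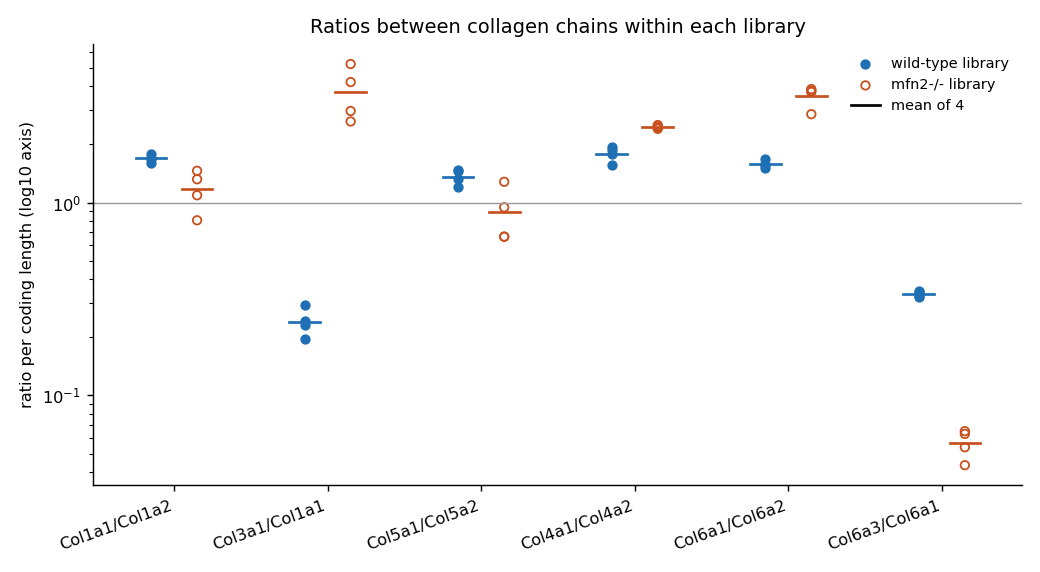
Ratio of reads per coding length between 6 pairs of collagen chains (log10 axis), filled points for wild-type and open points for mfn2-/- libraries, bars at the mean of 4. Mean Col6a3/Col6a1 is 0.335 in wild-type and 0.0565 in mfn2-/- and mean Col3a1/Col1a1 is 0.241 and 3.76, and of the 6 only Col5a1/Col5a2 overlaps between genotypes.

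The classes also differ in gene structure, which the symbol rule did not use. In GENCODE M21 the fibrillar genes had a median of 60 coding exons, of which 29 were exactly 54 bases long (range 21 to 33), and 74.6% to 88.5% of their coding exons had a length divisible by 9, the bases of 1 Gly-X-Y triplet. Basement membrane genes had a median of 2 exons of 54 bases (1 to 3), FACIT genes 14 (4 to 28) and beaded genes 3 (2 to 3). Col8a1, Col8a2 and Col10a1 had only 2 coding exons each, and all of them fell, as did the exon-rich Col1a1 and Col11a1. Reads may be shared with overlapping genes on the same strand for Col3a1 (Gm47302), Col20a1 (BX649560.1) and Col7a1 (Mir711). Genes on the other strand overlapped Col10a1 (Nt5dc1), Col9a3 (Tcfl5), Col5a1, Col4a1, Col4a2, Col4a3, Col22a1, Col6a6 and Col15a1, and the strand setting of the counting was not given.

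Collagen is made through a long secretory route, in which prolyl and lysyl residues are hydroxylated, chains are folded and exported, propeptides are cut off and fibrils are cross-linked. From a list of 42 genes of this route and of collagen receptors, chosen with earlier results of these data known, 39 were tested. By limma 25 were called lower and 0 higher, with a median change of -1.69. Among all genes tested, 6.36% were called lower and 3.99% higher, with a median of -0.16. At an unadjusted p under 0.05 there were 30 lower and 0 higher, and edgeR and DESeq2 called 22 and 27 lower and 0 higher. Lower were 6 of 13 hydroxylation genes, 3 of 6 of folding and export, 5 of 7 of propeptide cleavage, 5 of 5 of cross-linking and 6 of 8 receptor and uptake genes. The count was 16 without the intensity trend and also 16 with libraries of the same genotype and kind averaged. Over all genes the calls lower went from 748 to 520 and to 400 in these settings, in that order.

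Among hydroxylation genes, P4hb, the shared subunit of prolyl 4-hydroxylase, went from 2330 ± 216 to 1366 ± 154 normalized reads (SD, n = 4, log2 change -0.77, limma adjusted p 0.011). The prolyl 3-hydroxylase genes Lepre1 and Leprel2 changed by -2.20 and -3.25, Crtap by -3.28 and the lysyl hydroxylase gene Plod1 by -2.21, all past the limma threshold. P4ha1, a catalytic subunit, measured 1353 ± 429 and 1317 ± 266 (log2 change 0.00, SE 0.24, limma adjusted p 0.993), and its sign moved with the scaling. Serpinh1, the collagen chaperone HSP47, went from 4893 ± 309 to 2239 ± 218 (log2 change -1.13, limma adjusted p 0.00075). The peptidyl-prolyl isomerase gene Fkbp10 changed by -1.83 and Sec24d, of the COPII export coat, by -0.77, the latter losing its call in 6 of 8 fits that left out 1 library. Mia3, which loads procollagen into transport carriers, measured 869 ± 144 and 682 ± 141 and did not pass (limma adjusted p 0.325).

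Of the 7 genes of propeptide cleavage 5 fell, and the group median was -4.39. That median is the change of Pcolce2, which was at 0 in 2 mfn2-/- libraries and lost its call in 6 of 8 fits that left out 1 library. Pcolce, the enhancer of C-propeptide removal, went from 1258 ± 35.5 to 38.3 ± 25.6 (log2 change -5.43, limma adjusted p 5.24e-05), and the N-proteinase gene Adamts2 from 919 ± 99 to 23.6 ± 11.8 (log2 change -5.40, limma adjusted p 4.96e-06). Adamts3 changed by -5.22 and Bmp1, the C-proteinase, by -1.68, while Adamts14 measured 235 ± 100.1 and 84.8 ± 18.9 and did not pass (limma adjusted p 0.0774), nor did Tll1 (limma adjusted p 0.158). All lysyl oxidase genes were lower, Lox by -1.62, Loxl1 by -2.08, Loxl2 by -2.25, Loxl3 by -3.14 and Loxl4 by -7.39 on the log2 scale. Of the receptors, Itga11, the alpha subunit of the fibrillar collagen integrin, went from 277 ± 49.6 to 7.57 ± 9.50 (log2 change -5.79, limma adjusted p 0.00148). Ddr2, Mrc2 and Itgb1 changed by -1.11, -1.21 and -0.68, and Ddr1, the receptor tyrosine kinase of epithelial cells, measured 232 ± 64.4 and 351 ± 153 without passing (limma adjusted p 0.322). The call of Itgb1 was lost in 4 of 8 fits that left out 1 library.

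With libraries of the same genotype and kind averaged, the calls of Serpinh1 (limma adjusted p 0.0818), P4hb (0.208), Sec24d (0.212), Ddr2 (0.0616) and Itgb1 (0.325) were lost. Without the intensity trend those of P4hb (limma adjusted p 0.111), Sec24d (0.159), Crtap (0.0675), Mrc2 (0.0765), Ddr2 (0.107) and Itgb1 (0.159) were lost.

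Marker lists of cell types moved with genotype beside the collagens. The lists were chosen with earlier results of these data known, so their counts describe these libraries and are not independent evidence. Among all genes tested, 6.36% were called lower and 3.99% higher. The summed level of 9 tenocyte markers was 38669 to 60889 normalized reads in wild-type and 306 to 415 in mfn2-/- libraries, and 9 of 9 tested were called lower. Of 13 fibroadipogenic markers 11 were lower, with sums of 38497 to 53536 and 5198 to 7894. Those not called were Dpt (log2 change -1.66, limma adjusted p 0.127) and Ly6a, which was weak and went the other way (2.08, limma adjusted p 0.309). Most of the mfn2-/- sums was Gsn, at 12228 to 23336 in wild-type and 4060 to 6551 in mfn2-/- libraries (log2 change -1.72). Pdgfra, the surface receptor that defines fibroadipogenic progenitors, measured 2618, 3475, 2112 and 1919 in wild-type and 31.3, 31.6, 64.8 and 0 in mfn2-/- libraries, and the tendon gene Tnmd measured 1517, 1696, 4130 and 4023 and 20.003, 7.11, 0 and 0. These cells are known to be rich in fibrillar collagen, and the part of these markers in the collagen result was not tested.

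The muscle stem cell list summed to 9444 to 15160 in wild-type and 28944 to 42485 in mfn2-/- libraries, with 4 of 10 markers higher by limma (Myod1, Vcam1, Sdc4 and Des) and 0 lower, and DESeq2 called 4 higher and 1 lower. The difference in the sums lay mostly in Sdc4, which ranged from 2908 to 5871 in wild-type and from 14829 to 23212 in mfn2-/- libraries, and Des, from 1376 to 3104 and from 5275 to 11504. Myf5 and Msc changed by 0.07 and 0.00 and did not pass, and Itga7, at a log2 change of -0.87, did not pass either (limma adjusted p 0.11). Pax7 itself overlapped between genotypes, at 730, 651, 630 and 639 in wild-type and 711, 803, 582 and 762 in mfn2-/- libraries. The sums of the endothelial list (998 to 1659 and 1194 to 2100, none of 7 at an unadjusted p under 0.05) and the chondrocyte list (812 to 1368 and 542 to 1244, 2 lower and 1 higher of 5) overlapped between genotypes. Of the chondrocyte list, Sox9 was called higher and made up nearly all of the mfn2-/- sums. Sox9 measured 598, 606, 319 and 376 in wild-type and 1178, 1244, 886 and 542 in mfn2-/- libraries. Acan, at 125, 179, 518 and 408 in wild-type, and Hapln1, at 61.4 to 355, were called lower. In mfn2-/- libraries Acan was at 0 throughout and Hapln1 at 0 to 2.95. Lect1 and Matn3 changed by -3.73 and -3.53 and did not pass (limma adjusted p 0.114 and 0.158). Matn1, too weak to test, was at 0 in every mfn2-/- library and in all wild-type libraries but replicate 2 (20.7). Mural markers summed to 3727 to 4688 and 2069 to 3472 (2 of 6 lower) and Schwann markers to 343 to 733 and 233 to 461 (1 of 5 lower). Macrophage markers summed to 29.4 to 93.2 and 71.3 to 116 (none of 3 at an unadjusted p under 0.05). The defining macrophage gene Emr1 was at 0 in every library but mfn2-/- replicate 2 (14.2) and was not tested. Cd34, whose product was absent from the sorted cells by the gate, measured 1643 ± 260 and 454 ± 164 normalized reads. In bulk RNA, fewer cells of a type and less RNA of these genes per cell cannot be told apart.

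**Figure D5:**
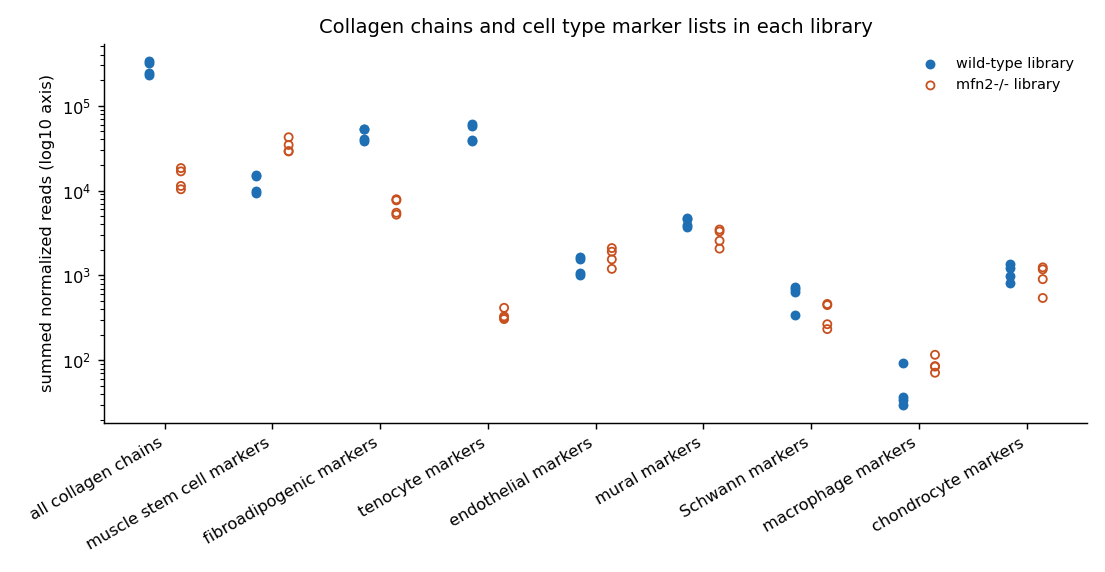
Summed normalized reads (log10 axis) of all 42 collagen chains and of 8 cell type marker lists in each library, filled points for wild-type and open points for mfn2-/-. The tenocyte list (38669 to 60889 against 306 to 415) and the fibroadipogenic list (38497 to 53536 against 5198 to 7894) are lower in mfn2-/- libraries like the collagen sum, and the muscle stem cell list (9444 to 15160 against 28944 to 42485) is higher.

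All 35 called chains were lower both among libraries with and among libraries without Y-linked reads, with medians of -4.05 and -4.35 over the chains tested. For 34 of the 35 this had to hold, since every mfn2-/- library lay below every wild-type library. The class medians were -3.72 and -5.15 for fibrillar, -3.08 and -3.04 for basement membrane, -4.76 and -5.95 for FACIT, -5.34 and -4.40 for beaded and -3.98 and -4.08 for other chains, in the same order, and no test was run on the class medians. Leaving out mfn2-/- replicate 4, the library with the fewest genes detected, gave 34 chains called lower, Col4a3 being lost. Over the 8 fits that left out 1 library each the count ran from 29 to 34, and 29 chains were called in every one of them, among which were all chains with a mean above 1000. Emid2, the older symbol of Col26a1, ranged from 278 to 366 normalized reads in wild-type and from 33.9 to 71.5 in mfn2-/- libraries (log2 change -2.62, limma adjusted p 0.000531).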

How the data were processed

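RNA was extracted by the authors from sorted ASCs of 4 wild-type and 4 mfn2-/- samples and made into stranded libraries with the SMARTer pico total RNA kit. Per the submitters' processing notes, Trim Galore, HISAT2, featureCounts, DESeq2 and the mm9 build were used. Versions, gene annotation and the strand setting are not given in the sources used here. The deposited signal per gene is a normalized read count on a linear scale, 1 table of 18877 symbols. In every library 100% of values were whole multiples of 1 step (tolerance 0.01 reads), so whole reads were recovered from it, with 1 read worth 0.534 to 2.27 normalized reads. Intervals and the floor of 3 reads cover counting error only.

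Of the symbols, 11754 had a mean of 10 or more and entered limma (3.58.1, R 4.3.3), fitted two-sided to log2(value + 1) without covariates and with an intensity-dependent prior variance, and Benjamini-Hochberg adjusted p-values were read at 0.05 over all genes. Exact permutation tests ran over the 70 arrangements. The members, classes, pathway and marker lists and tests were chosen with earlier results of these data known. Every member was accounted for. Values per library were given for members with a mean of at least 100 (at most 6 per class), for those not called and for those losing the call when 1 library was left out, and pathway genes were named by a mean of at least 100 (at most 5 per group) with the most abundant one not called. Col4a4, Col5a3, Col9a2, Col9a3, Col10a1, Col11a1, Col11a2, Col25a1 and Col28a1 were described by range or reads.

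The settings changed one at a time were the pseudocount (0.1 or 10), the filter (none, or a mean of 50), equal totals, upper-quartile and quantile scaling, the replicate block, no trend, library weights, Y-linked reads as a term, each library left out, edgeR 4.0.16 and DESeq2 1.42.0 on recovered reads. The Y-linked interaction, the averaging of libraries by genotype and kind, and exonic length were chosen after seeing the data. On simulated counts for this comparison (11216 genes, 200 changed by a log2 change of 2) 37% of the changed genes were recovered by limma, 33.5% by edgeR and 48% by DESeq2, and 3.9%, 5.63% and 27.3% of their calls were false. Lengths and exons came from GENCODE M21 (GRCm38), promoters from RefSeq (GRCm38.p6), and the table, made on mm9, carries no coordinates. Tables and figures were made in Python 3.11.15.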

Additional observations from a re-analysis of the deposited data

Results flagged for a closer look

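Values far from the other 3 of their group were found in 18 of 186 groups of 4 examined, where chance gives about 9.3 (1 in 20), and 8 of the 18 were in mfn2-/- replicate 4. Among collagen chains in mfn2-/- libraries, Col14a1 was at 119 in replicate 4 (65 reads) against 0 to 15 in the others, Col17a1 at 106 in replicate 4 against 46.6 to 56.0, Col28a1 at 14.2 in replicate 2 against 0 to 1.33, Col4a3 at 5.53 in replicate 2 against 0 to 0.667 and Col25a1 at 3.95 in replicate 2 against 0 to 0.667. The last 3 rest on 18, 7 and 5 reads.

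Among shares and ratios, fibrillar chains took 74.8% of collagen reads in wild-type replicate 2 against 75.7% to 75.8% in the others. The other class took 0.0205% of the normalized total in mfn2-/- replicate 3 (others 0.0283% to 0.0292%) and 11.7% of collagen reads in mfn2-/- replicate 4 (others 6.54% to 6.80%). Col6a1 over Col6a2 per coding length was 2.87 in mfn2-/- replicate 4 (others 3.74 to 3.87), and the macrophage marker sum was 93.2 in wild-type replicate 1 (others 29.4 to 36.9).

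Among pathway genes in mfn2-/- libraries, Loxl4 was at 6.32 in replicate 2 with 0 in the others, and replicate 4 stood apart for Leprel2 (12.8), Lepre1 (80.6), Adamts3 (31.2) and Ddr1 (579). In wild-type libraries Adamts2 was at 1067 in replicate 3, and Adamts14 at 85.0 and Mrc2 at 1363 in replicate 2.

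The change of Col3a1 differed between libraries with and without Y-linked reads by 1.43 (SE 0.26, limma interaction adjusted p 0.025), lower in mfn2-/- in both kinds. These kinds cannot be told apart from a preparation shared within each pair of libraries. The next chains, Col2a1 (-2.43, adjusted p 0.0582) and Col5a3 (1.25, adjusted p 0.0837), did not pass. At an unadjusted p under 0.05 there were 6 chains of 41 and 12% of all genes.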

How the results depend on the processing

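Over 895 single-chain values under 22 alternatives, 840 stayed on their side of the threshold, 51 lost and 4 gained a call, and 0 changed direction. The count of chains called lower, 35, ran from 29 to 34 with 1 library left out and from 29 to 36 otherwise. It was 29 with libraries of the same genotype and kind averaged, where Col4a1, Col4a3, Col13a1, Col20a1, Col23a1 and Col27a1 were lost. Basement membrane chains called lower went from 5 to 3 without the intensity trend and to 3 with libraries averaged, and pathway genes called lower from 25 to 16 in each of these. Chains called higher went from 0 to 1 (Col19a1) with library weights. The log2 change of the collagen share was -2.88 without Col1a1, Col1a2 and Col3a1. P4ha1 turned from a value near 0 to 0.04 with equal totals and upper-quartile scaling, 0.44 with library weights, 0.05 with edgeR, and 0.05 to 0.15 with 1 library left out. The causes were not tested. Over all genes, calls of 748 lower and 469 higher became 520 and 113 without the trend, 1639 and 1398 with library weights, 400 and 122 with libraries averaged, and 435 and 235 without wild-type replicate 3. The median change of all genes was -0.16, and 0.127 with quantile normalization.

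Same-numbered libraries showed no shared deviation (correlations -0.0347, -0.0532, 0.0383 and -0.111). With 4 libraries per genotype these values cannot decide whether the numbers pair libraries or mark a shared preparation. With the replicate block 31 chains were called lower, Col4a3, Col20a1, Col23a1 and Col27a1 being lost.

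Depth limits chains near the floor, such as Col25a1, Col4a6 and Col6a5, above all in wild-type replicate 1 and mfn2-/- replicate 4.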
